A study of Mus musculus with 50 samples.

Results

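The RNA of 4 genes was followed here in the whole thyroid of mice given antibodies that block Notch ligands or receptors. Notch3, Heyl, Rgs5 and Ndufa4l2 are known from the mural cells that wrap small blood vessels. They are the rows of the deposited count table whose Ensembl IDs map to these symbols (ENSMUSG00000038146 for Notch3, ENSMUSG00000032744 for Heyl, ENSMUSG00000026678 for Rgs5 and ENSMUSG00000040280 for Ndufa4l2), 4 of 52636 genes in all. The genes were chosen on their read level in 5 comparisons of an antibody with the control antibody of its own time, though not always of its own series of sample IDs. Their values in those comparisons are therefore a description, with no test. A 6th comparison, between 2 antibody groups of a second 7-day set, has no control antibody and was not among those 5. For it the adjusted p of the fit over all genes is given. The choice also read levels over all 10 groups and was made with earlier results of these data known, so that p is not independent support.

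The study gave male C57BL/6 mice, from 10 weeks of age, a single intraperitoneal dose of antibody and took the thyroid for RNA sequencing. The labels give an upper age of 14 weeks in one place and 12 weeks in another. The control antibody, RW, is directed against ragweed and was given at 40 mg/kg. The ligand-blocking pair aJ1aJ2 (anti-Jag1 and anti-Jag2) was given at 20 mg/kg of each antibody. The receptor-blocking pair aN1aN2 (anti-Notch1 and anti-Notch2) was given at 5 and 10 mg/kg, and the triple aN1aN2aN3 added anti-Notch3 at 20 mg/kg. RW, aJ1aJ2 and aN1aN2 were taken at 15 hours and at 5 days. The 15-hour aN1aN2 libraries carry sample IDs of the 5-day series, and the 15-hour RW and aJ1aJ2 libraries those of another series. RW and aJ1aJ2 were taken at 7 days in a first set, and aJ1aJ2 and aN1aN2aN3 at 7 days in a second set with its own series of sample IDs. Each of these 10 groups has 5 libraries. The second set was analysed here without an RW group. The series description also speaks of thyroid hormone injections, which the labels assign to no particular mouse. The groups are bulk tissue, so fewer cells of a type and less RNA per cell cannot be told apart in any value below.

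Notch receptors are cut when a ligand on a neighbouring cell binds, and the freed intracellular part joins the DNA-binding protein RBPJ to switch on target genes, among them the Hes and Hey repressors. Notch3 is the receptor best known from pericytes and vascular smooth muscle, where it is itself raised by Notch signalling and where Jag1 on endothelium is a known ligand. Heyl is a Hey-family repressor and a Notch target in mural cells. Rgs5, a GTPase-activating protein that dampens signalling by G-protein-coupled receptors, is a standard pericyte marker, and Ndufa4l2 encodes a mitochondrial protein that hypoxia raises in many cells and that is abundant in pericytes.

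The promoters of 2 of the 4 genes were in the RefSeq promoter table (GRCm38.p6), and they are shown because the receptor gene and the pericyte marker differ there in base composition and in the motifs they hold. Each line gives the 250 bases before the start of the gene, on the gene's own strand, 5′ to 3′. Capitals mark every match to the GC box (GGGCGG or CCGCCC) and to the core of the hypoxia response element (ACGTG or CACGT).
Notch3, chr17:32166891-32167140, minus strand: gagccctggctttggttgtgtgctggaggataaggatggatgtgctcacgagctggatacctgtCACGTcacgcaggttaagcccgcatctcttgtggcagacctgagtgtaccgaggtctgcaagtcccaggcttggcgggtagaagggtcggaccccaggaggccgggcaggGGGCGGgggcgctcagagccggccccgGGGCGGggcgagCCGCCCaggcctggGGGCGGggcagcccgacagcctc
Rgs5, chr1:169655251-169655500, plus strand: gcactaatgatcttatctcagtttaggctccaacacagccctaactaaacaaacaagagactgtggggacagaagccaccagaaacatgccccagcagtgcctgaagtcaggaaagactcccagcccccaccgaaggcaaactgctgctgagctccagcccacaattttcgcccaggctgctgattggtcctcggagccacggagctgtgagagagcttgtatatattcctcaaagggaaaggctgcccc

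The Notch3 window was 68.8% G and C, above 89.0% of the 32851 promoter windows in the table, and the Rgs5 window was 53.6%, close to their median of 52.4%. The Notch3 window held 4 GC boxes, a motif with at least 1 match in 32.7% of all windows. It also held 1 match to the hypoxia core, which 16.6% of windows hold. Neither window held the RBPJ core TGGGAA (or TTCCCA, in 21.6% of windows), the E-box CACGTG (6.02%) or the TATA box TATAAA (or TTTATA, 12.4%), and the Rgs5 window matched none of the 5 motifs, searched on both strands. The E-box contains the hypoxia core, so those motifs overlap. Matches are descriptions of letters, and a missing match says only that the letters are not in these 250 bases. The transcripts also differ in composition: in GENCODE M21 the longest Notch3 transcript is 8016 bases at 59.6% GC, Heyl 4537 bases at 55.2%, Rgs5 4096 bases at 41.1% and Ndufa4l2 994 bases at 60.7%, against medians of 3179 bases and 49.7% over genes. Exons of Notch3 overlap Gm17276 and exons of Ndufa4l2 overlap Shmt2, both on the opposite strand, and the use of strand in counting is not given, so part of the reads of these genes could belong to the partner.

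Library totals ran from 15.3 to 52.8 M counts. Levels below are in CPM, the usual count of a gene relative to the depth of its library, with library sizes scaled by the TMM method. Tg, the thyroid hormone precursor, took 0.450 to 42.4% of a library's counts and 10 skeletal muscle fibre genes took 0.0412 to 14.6%, so the dissected pieces differed in how much neighbouring muscle they held. RW replicate 3 at 5 days had both the lowest Tg share and the highest muscle share. The second 7-day set stands apart from the other groups: its median Tg level was 12243 CPM with aJ1aJ2 and 34224 CPM with aN1aN2aN3, against group medians of 244417 CPM or more elsewhere. Single libraries at 5 days reached as low, RW replicate 3 at 7695 CPM and 1 aJ1aJ2 library at 24728 CPM. The contrast between long and short transcripts (median log2 deviation of the 20% of genes with the longest transcripts minus that of the 20% with the shortest) was -1.68 to -0.83 in that set and -0.41 to 0.68 in the others. What set these libraries apart cannot be told apart from the set itself. Antibodies are therefore compared only within a time or a 7-day set, and levels from both sets are placed side by side as a description. At 15 hours the comparison of aN1aN2 with RW still crosses sample ID series, so series and antibody cannot be told apart in it.

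Beside these genes 21 other mural genes were read, which cannot show which cells the RNA of the 4 came from. All 21 had counts in every group. Pdgfrb, a receptor used as a pericyte marker, averaged 41.7 to 68.7 CPM in the 8 groups outside the second set. Abcc9 and Kcnj8, which form a pericyte potassium channel, averaged 90.3 to 211 and 8.87 to 12.8 CPM in those groups. Des, Art3 and Abcc9 of this list are also expressed in muscle, and Abcc9 reached 618 CPM in 1 RW library at 5 days against a group median of 104, so the list was summed without these 3, a choice made after seeing the data. The sum of the other 18 genes averaged 421 to 562 CPM in the 8 groups, and in the second set 193 ± 28.8 CPM for aJ1aJ2 and 162 ± 26.03 CPM for aN1aN2aN3 (SD, n = 5 each). Anpep weighs heavily in this sum: it averaged 264 CPM with RW at 7 days, where the sum was 562 CPM. It ran from 16.5 to 211 CPM with aJ1aJ2 in the same set. Mural markers are thus present throughout, but the sum is no even measure of them. The 4 genes did not, however, vary as 1 unit from library to library, as shown at the end.

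Per transcript length the 4 genes differ in abundance. In RW thyroid at 7 days the deposited FPKM (a level scaled to library depth and gene length) was 5.97 ± 0.988 for Rgs5, 2.92 ± 1.41 for Ndufa4l2, 2.37 ± 0.306 for Heyl and 1.12 ± 0.135 for Notch3 (SD, n = 5). Pdgfrb was at 1.14 ± 0.151 FPKM there. With aJ1aJ2 in the same set the levels were 2.07 ± 0.570 FPKM for Rgs5, 1.44 ± 0.399 for Heyl, 0.892 ± 0.206 for Ndufa4l2, 0.724 ± 0.133 for Notch3 and 1.12 ± 0.121 for Pdgfrb.

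**Figure D1:**
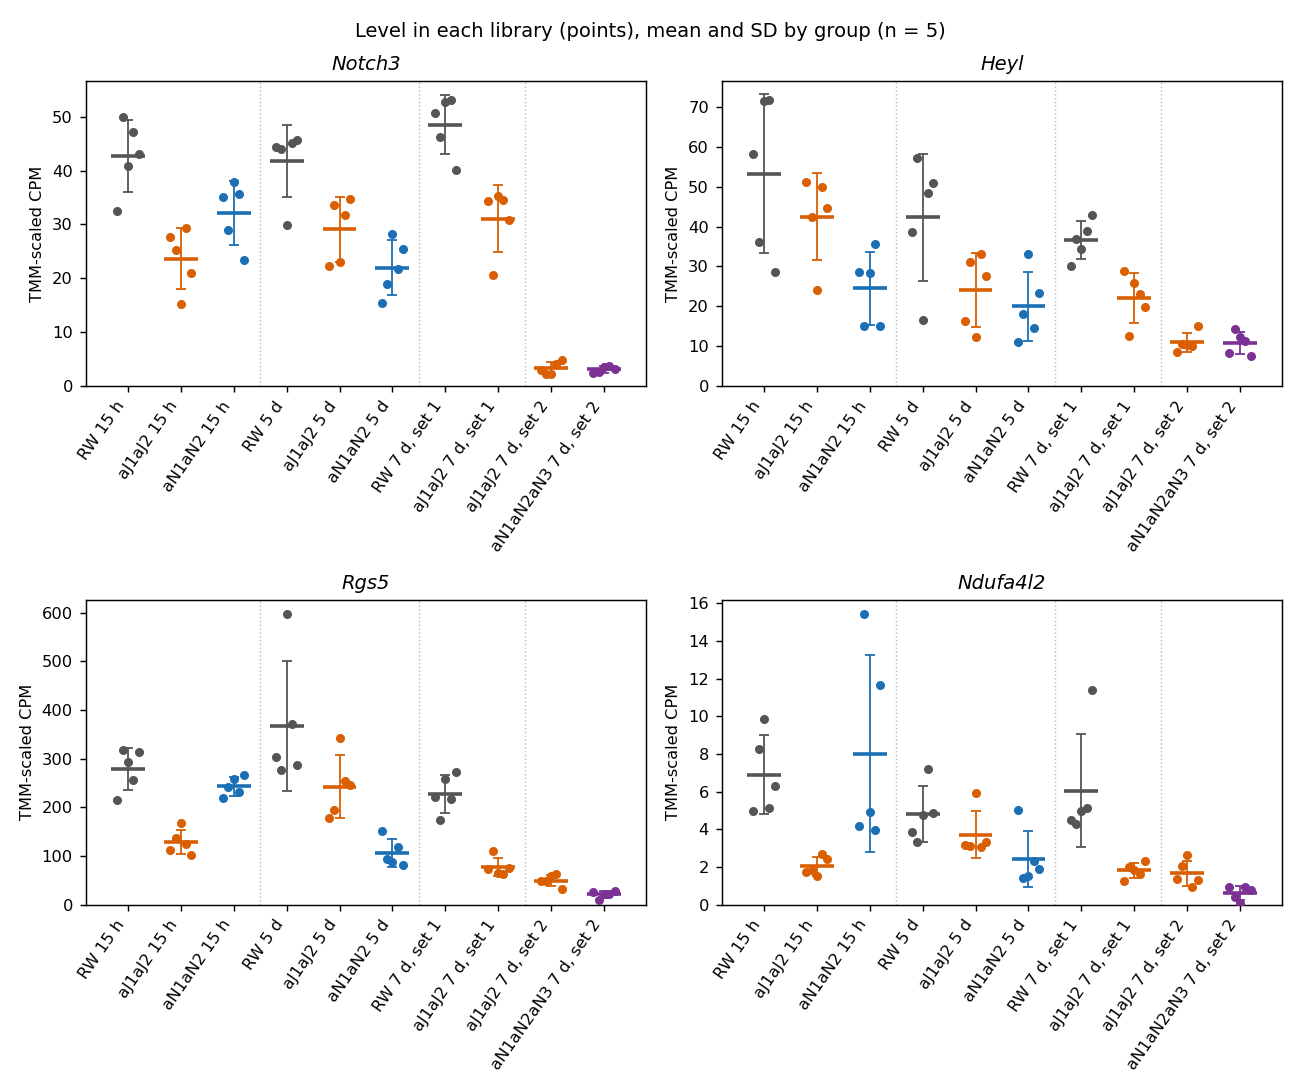
Level of each gene (CPM on the TMM-scaled library size, linear axis from 0) in each of the 50 libraries, by group; points are libraries, bars the mean and whiskers the SD over 5 libraries. Notch3 is between 29.9 and 53.1 CPM in every RW library and below 5 CPM in every library of the second 7-day set. Under aJ1aJ2 there is no overlap with RW for Notch3, Rgs5 and Ndufa4l2 at 15 hours and for all 4 genes at 7 days.

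Notch3, the receptor, had a lower mean than RW with aJ1aJ2 at all 3 times and with aN1aN2 at 15 hours and 5 days, the times at which that pair was given. At 15 hours the RW libraries held 32.5, 49.9, 40.8, 47.2 and 43.0 CPM and the aJ1aJ2 libraries 27.6, 25.2, 15.1, 29.4 and 20.9. All 5 aJ1aJ2 libraries lay below all 5 RW libraries, with a log2 fold change of -0.89 (SE 0.18), or 1.85-fold lower. The aN1aN2 libraries at 15 hours held 35.1, 28.9, 37.9, 35.6 and 23.3 CPM, overlapping RW, for a log2 difference of -0.43 (SE 0.18).

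At 5 days Notch3 stood at 44.4, 43.9, 29.9, 45.1 and 45.7 CPM with RW and at 22.2, 33.6, 23.0, 31.8 and 34.7 CPM with aJ1aJ2. The aN1aN2 libraries held 15.4, 18.9, 28.3, 21.7 and 25.4 CPM. RW replicate 3, the library rich in muscle RNA, was the lowest of its group, yet the aN1aN2 group still lay wholly below RW. The log2 fold change was -0.93 (SE 0.18) for aN1aN2 and -0.52 (SE 0.18) for aJ1aJ2, which overlapped RW through that library.

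At 7 days in the first set the RW libraries held 50.7, 46.2, 52.7, 53.1 and 40.0 CPM of Notch3 and the aJ1aJ2 libraries 34.3, 20.5, 35.3, 34.6 and 30.8. The groups did not overlap, and the log2 fold change was -0.63 (SE 0.15). Ranked over the 10 groups, the 3 RW means (48.6, 42.7 and 41.8 CPM at 7 days, 15 hours and 5 days) were the highest, aN1aN2 at 15 hours (32.2), aJ1aJ2 at 7 days (31.1), at 5 days (29.1) and at 15 hours (23.7) and aN1aN2 at 5 days (22.0) followed, and the second set came last. The mean ± SD intervals of neighbours overlapped at every step except the one from aN1aN2 at 5 days to the second set.

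Heyl, the repressor downstream of Notch, followed another course. With RW at 15 hours its level was 58.3, 36.1, 71.5, 71.7 and 28.7 CPM, and with aJ1aJ2 it was 51.3, 42.5, 24.1, 50.0 and 44.7. These groups overlapped widely (log2 fold change -0.35, SE 0.30), and without aJ1aJ2 replicate 3 the value was -0.18. With aN1aN2 the 15-hour libraries held 28.5, 15.1, 28.3, 35.5 and 15.0 CPM, a log2 fold change of -1.14 (SE 0.30), or 2.20-fold lower; only the lowest RW library fell within the aN1aN2 range.

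At 5 days Heyl was at 38.6, 57.1, 16.5, 48.5 and 51.0 CPM with RW, 16.3, 31.1, 12.2, 33.0 and 27.7 with aJ1aJ2, and 11.0, 18.0, 33.2, 14.6 and 23.4 with aN1aN2. RW replicate 3 was again the low library, at 16.5 CPM. The log2 fold changes were -0.81 (SE 0.36) for aJ1aJ2 and -1.09 (SE 0.36) for aN1aN2, and -0.99 and -1.28 without that library. At 7 days in the first set RW held 30.1, 36.8, 34.3, 38.9 and 43.0 CPM and aJ1aJ2 28.9, 12.5, 25.8, 23.0 and 19.8, with no overlap and a log2 fold change of -0.72 (SE 0.19). In the order of group means, no pair of neighbours was separated by more than their SDs, from RW at 15 hours (53.3 ± 20.0 CPM) down to aN1aN2aN3 (10.8 ± 2.84 CPM).

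Rgs5, the pericyte marker, showed the clearest separations. The 15-hour RW libraries held 215, 317, 293, 256 and 314 CPM and the aJ1aJ2 libraries 113, 138, 167, 124 and 103. Every aJ1aJ2 library lay below every RW library, a log2 fold change of -1.14 (SE 0.16), or 2.21-fold lower. The aN1aN2 libraries at 15 hours held 218, 242, 258, 231 and 265 CPM, inside the RW range (log2 fold change -0.22, SE 0.16).

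At 5 days the order of the antibody pairs was the reverse for Rgs5. RW held 303, 276, 597, 371 and 286 CPM, aJ1aJ2 178, 195, 342, 254 and 245, and aN1aN2 151, 92.8, 88.2, 118 and 81.3. Now the aN1aN2 libraries were the ones wholly below RW, with a log2 fold change of -1.79 (SE 0.29), or 3.46-fold lower, while aJ1aJ2 overlapped RW at -0.60 (SE 0.28). RW replicate 3 was the highest Rgs5 library of the series; without it the values were -1.52 for aN1aN2 and -0.32 for aJ1aJ2. The 5-day aJ1aJ2 value also shrank to -0.07 when the GC contrast of the libraries (high-GC minus low-GC genes) was added to the fit. That contrast ran from -0.33 to -0.04 in RW and from -0.12 to 0.04 in aJ1aJ2 at 5 days; its part in the Rgs5 difference was not tested.

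At 7 days in the first set Rgs5 was at 220, 173, 258, 216 and 271 CPM with RW and at 72.6, 111, 65.1, 63.1 and 75.9 CPM with aJ1aJ2. The groups did not overlap, and the log2 fold change was -1.53 (SE 0.19), or 2.89-fold lower. The mean ± SD intervals of Rgs5 split the 10 groups at 2 places: between RW at 7 days (228 ± 38.9 CPM) and aJ1aJ2 at 15 hours (129 ± 24.9), and between aJ1aJ2 (49.5 ± 12.1) and aN1aN2aN3 (21.3 ± 7.22) of the second set. The first of these gaps puts all 3 RW groups, aN1aN2 at 15 hours and aJ1aJ2 at 5 days above it.

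Ndufa4l2, the mitochondrial protein gene, had the fewest reads of the 4. At 15 hours RW held 4.98, 8.25, 9.86, 5.12 and 6.30 CPM and aJ1aJ2 1.73, 1.83, 1.52, 2.69 and 2.42. The groups did not overlap, with a log2 fold change of -1.79 (SE 0.39), or 3.46-fold lower. The aN1aN2 libraries held 4.15, 15.4, 4.89, 3.98 and 11.7 CPM: 3 lay below the RW range and 2 above it, for a log2 difference of 0.20 (SE 0.38) that became -0.18 without replicate 2.

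At 5 days Ndufa4l2 stood at 3.83, 3.32, 4.76, 7.20 and 4.86 CPM with RW, at 3.14, 3.14, 5.92, 3.06 and 3.35 with aJ1aJ2, and at 5.01, 1.39, 1.50, 2.34 and 1.89 with aN1aN2. In each antibody group a single library stood above the other 4. The log2 differences were -0.35 (SE 0.37) for aJ1aJ2, which became -0.60 without its replicate 3 and -0.17 without RW replicate 4, and -0.96 (SE 0.37) for aN1aN2, which became -1.44 without its replicate 1. At 7 days in the first set RW held 4.49, 4.27, 4.97, 5.15 and 11.4 CPM and aJ1aJ2 1.24, 2.01, 1.83, 1.64 and 2.34, again with no overlap (log2 fold change -1.72, SE 0.30). The order of the Ndufa4l2 means ran from aN1aN2 at 15 hours (8.02 ± 5.22 CPM) to aN1aN2aN3 (0.636 ± 0.370 CPM), and each neighbouring pair overlapped within its SDs.

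**Figure D2:**
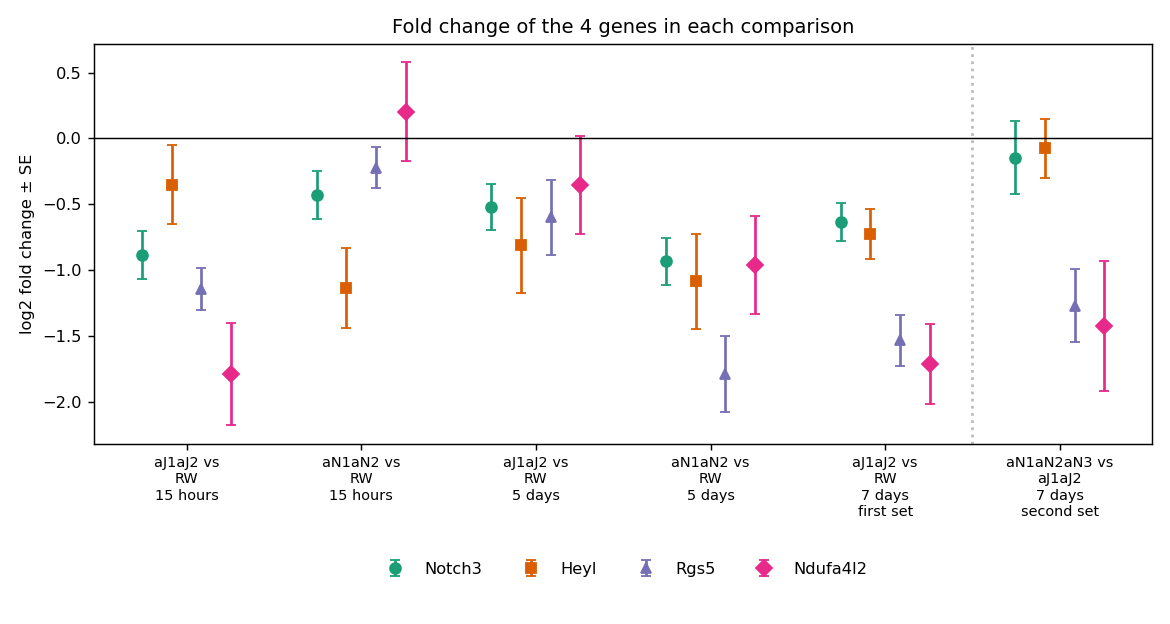
Log2 fold change (points) and its SE (whiskers) of the 4 genes in the 6 comparisons, from the edgeR fits; the dotted line sets off the second 7-day set, which has no RW library. At 15 hours Notch3, Rgs5 and Ndufa4l2 lie at -0.89, -1.14 and -1.79 with aJ1aJ2 and at -0.43, -0.22 and 0.20 with aN1aN2. Heyl lies at -0.35 with aJ1aJ2 and at -1.14 with aN1aN2.

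Set side by side, the antibody pairs gave different profiles over the 4 genes at 15 hours. The comparisons with RW share the RW libraries, so the pairs were set against each other directly as well, again as a description with no test. The log2 difference of aN1aN2 minus aJ1aJ2 at 15 hours was 1.99 for Ndufa4l2 (SE 0.39) and 0.92 for Rgs5 (SE 0.16). It was 0.46 for Notch3 (SE 0.18) and -0.79 for Heyl (SE 0.30). At 5 days all 4 differences were negative. They were -1.19 for Rgs5 (SE 0.28), -0.61 for Ndufa4l2 (SE 0.37), -0.41 for Notch3 (SE 0.18) and -0.28 for Heyl (SE 0.36). At 15 hours the aN1aN2 libraries also belong to another sample ID series and another normalization block of the deposited FPKM table than RW and aJ1aJ2. Series, block and antibody cannot be told apart there.

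Over all genes the same fits give the setting for these values. A gene was called where its Benjamini-Hochberg adjusted p over all genes tested fell below 0.05. In aJ1aJ2 against RW at 15 hours 0.573% of 18513 genes were called and 0.227% were called lower; of the 4 genes, 2 were called lower (Notch3 and Rgs5) and 3 were lower with no overlap, as were 0.718% of all genes. The Rgs5 call held in 15 of 15 fits that left out a library and in 8 of 9 other alternatives, and the Notch3 call in 3 of 15 and 4 of 9. Both were lost with limma on FPKM, which called 0 genes there (1045 at an unadjusted p under 0.05). The genes were chosen on this contrast and the fits reuse its libraries. The calls and these counts therefore describe the fits and are no test of the 4 genes. In aN1aN2 against RW at 15 hours 1.68% of genes were called and 0.799% were called lower, 0 of the 4 among them, and 2.14% of genes were lower with no overlap, again 0 of the 4. In aJ1aJ2 at 5 days 0.179% of genes were called, 0.103% were called lower and 2.27% lay lower without overlap, with 0 of the 4 in either count.

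In aN1aN2 at 5 days and in aJ1aJ2 at 7 days no gene at all was called by edgeR (0% of 18434 and 0% of 16954), while 1848 and 1968 genes had an unadjusted p under 0.05 and DESeq2 called 402 and 417. Among those that DESeq2 called lower were Notch3 and Rgs5 at 5 days and all 4 genes at 7 days, so the lack of calls depends on the method. Of the 4 genes, 2 were lower with no overlap at 5 days, where 1.31% of all genes were, and 4 at 7 days, where 2.05% were. The median log2 fold change of the 4 genes was -1.01, -0.33, -0.56, -1.02 and -1.13 in these 5 comparisons in order, beside medians over all genes of -0.03, 0.01, -0.06, -0.07 and 0.01. As the genes were chosen on these contrasts, nothing is read from their share or their calls.

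The wider mural list holds 21 identity genes, chosen beside the 4. In aJ1aJ2 against RW at 15 hours 2 of the 21 mural identity genes were called, both lower: Vtn, which encodes vitronectin and is a pericyte marker of brain, by a log2 fold change of -1.88 (SE 0.39, adjusted p = 0.046 by edgeR) and Cox4i2, a pericyte isoform of a cytochrome c oxidase subunit, by -1.56 (SE 0.31, adjusted p = 0.0341). Both lay below RW in 5 of 5 libraries without overlap. The list's median was -0.32, with 15 of 21 genes lower. Over all genes 56.1% were lower and 0.227% were called lower. Pdgfrb itself had a log2 fold change of -0.32 there and was not called. Fibroblast and muscle fibre genes had negative values beside these, with 10 of 10 lower in both lists and medians of -0.44 and -0.64, 0 of them called. Adipocyte genes had positive values, with 6 of 7 higher and a median of 0.51, 0 of them called. The fibroblast sum ran from 991 to 1795 CPM with RW and from 731 to 1264 CPM with aJ1aJ2, and the adipocyte sum from 301 to 875 CPM and 716 to 1480 CPM. Their part in the mural values was not tested.

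With aN1aN2 at 15 hours 1 mural gene was called, Gja4, the gap junction gene connexin 37, which endothelium also expresses, at -0.95 (SE 0.17, adjusted p = 0.0124 by edgeR), and the list's median was -0.11 with 12 of 21 lower. This comparison crosses sample ID series and FPKM blocks, so the antibody cannot be told apart from them in the Gja4 call. None of the 21 was called at 5 days or at 7 days in the first set, where the medians were -0.16 with 12 of 21 lower (aJ1aJ2, 5 days), -0.38 with 17 of 21 lower (aN1aN2, 5 days) and 0.02 with 10 of 20 tested lower (aJ1aJ2, 7 days). Of all genes 48.7% were lower with aN1aN2 at 15 hours, and 55.8%, 58.5% and 48.8% in these 3 comparisons in order. The log2 fold changes of Cox4i2, called at 15 hours, were 0.00, -1.27 and -1.78 in those 3 comparisons, the last 2 with no overlap. Those of Pdgfrb were -0.24, -0.40 and -0.03. Set over Pdgfrb in each library, Rgs5 had a median log2 ratio of 2.43 with RW and 0.62 with aJ1aJ2 at 7 days, and of 2.33 with RW, 1.40 with aJ1aJ2 and 2.27 with aN1aN2 at 15 hours. At 5 days the medians were 2.01, 1.92 and 1.23 in the same order. For the other genes the 15-hour medians in that order were -0.44, -0.89 and -0.47 for Notch3 and 0.33, -0.13 and -0.68 for Heyl. Those of Ndufa4l2 were -3.09, -4.31 and -3.10. The mean Heyl ratio there was -0.16 with RW and -0.15 with aJ1aJ2. These are ratios of RNA in bulk tissue and not levels per pericyte.

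**Figure D3:**
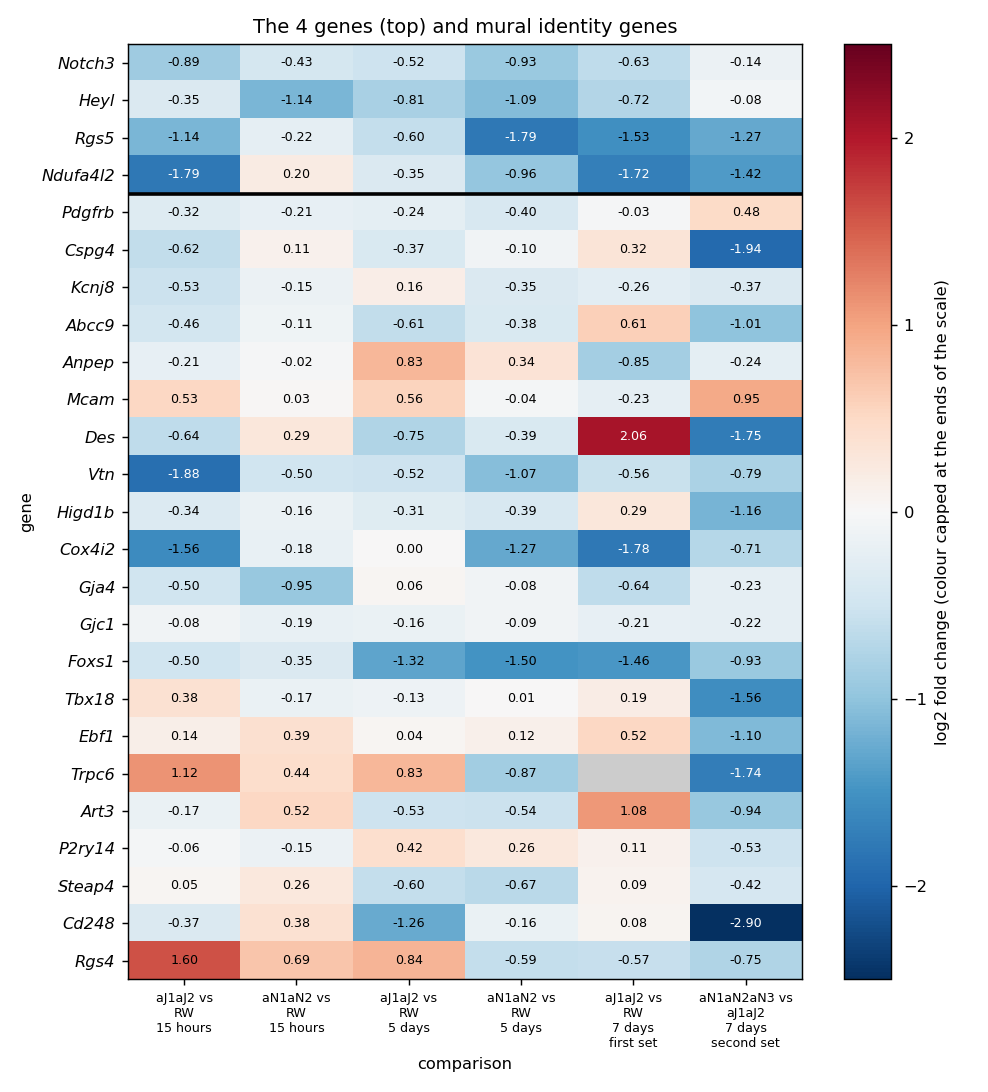
Log2 fold changes of the 4 genes (above the line) and of the 21 mural identity genes (below) in the 6 comparisons; colour is capped at the ends of its scale and grey marks a gene below the count filter. Cox4i2 and Vtn lie low with aJ1aJ2 at 15 hours, whereas Pdgfrb lies between -0.40 and 0.48 in every column.

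The list of remaining Notch genes had medians between -0.10 and -0.02 in the comparisons with RW, though single genes lay further from 0. Of 32 genes of the Notch pathway, 31 passed the count filter at 15 hours. With aJ1aJ2 none was called (median log2 fold change -0.03, 18 of 31 lower, beside 56.1% of all genes). With aN1aN2 2 were called, both lower: Dll4, the endothelial Notch ligand, at -1.04 (SE 0.18, adjusted p = 0.00847 by edgeR) and Psenen, a subunit of the gamma-secretase that cuts Notch, at -1.08 (SE 0.23, adjusted p = 0.0283). Exons of both overlap other genes on the opposite strand. The aN1aN2 and RW libraries here differ in sample ID series and FPKM block, so these cannot be told apart from the antibody. Their median GC contrast was 0.09 with aN1aN2 and 0.28 with RW, and its part in these calls was not tested. At 5 days and at 7 days in the first set 0 of the 30 or 31 tested were called, with medians between -0.08 and -0.02. Few genes of any kind were called there, 14 higher and 19 lower with aJ1aJ2 at 5 days and 0 in the others, so a lack of calls says little.

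The nearest relatives of the 4 genes were given by a list of 9 paralogs, of which 0 were called in any comparison with RW. Notch1 had log2 fold changes from -0.29 to 0.16 in those 5 comparisons, Notch2 from -0.18 to 0.08 and Notch4 from -0.44 to 0.39. The Hey genes were spread more widely: Hey1 stood at -0.02 and -0.34 at 15 hours (aJ1aJ2, then aN1aN2), -0.68 and -0.09 at 5 days and -0.72 at 7 days, where its groups did not overlap. Hey2 stood at 0.53 and 0.85 at 15 hours, -0.35 and -0.02 at 5 days and -0.23 at 7 days. Rgs4, another pericyte-associated regulator of G-protein signalling, had values of 1.60, 0.69, 0.84, -0.59 and -0.57; with aJ1aJ2 at 15 hours its libraries ran from 8.37 to 139 CPM around a median of 10.5. Rgs2 ranged from 0.04 to 0.93, Rgs16 from -0.98 to 0.56 and Ndufa4, the widely expressed relative of Ndufa4l2 in the respiratory chain, from -0.79 to 0.30.

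Hypoxia response genes were followed because Ndufa4l2 is one of the genes that hypoxia raises. Of 12 measured, 0 were called in the 5 comparisons with RW, and their medians ran from -0.19 to 0.15. Between 48.7% and 58.5% of all genes were lower in those 5 comparisons. The 9 smooth muscle contractile genes were not called either. Their median was -0.36 with aJ1aJ2 at 15 hours (9 of 9 lower), -0.04 with aN1aN2 at 15 hours, -0.12 and 0.20 at 5 days, and 0.49 with aJ1aJ2 at 7 days (1 of 9 lower).

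Markers of other cells had the following values beside these, with 0 called in any comparison with RW. In the 4 comparisons after aJ1aJ2 at 15 hours, fibroblast genes had medians of 0.32 (aN1aN2 at 15 hours, 0 of 10 lower), -0.88 and -0.24 (aJ1aJ2 and aN1aN2 at 5 days, 8 and 7 of 10 lower) and 0.15 (aJ1aJ2 at 7 days, 4 of 10 lower). Adipocyte genes had medians of 0.65, 0.92, 0.59 and 0.67 in the same order, with 0 of 7 lower in each. The shares of all genes lower were 48.7%, 55.8%, 58.5% and 48.8% in that order. The adipocyte sum ran from 722 to 1993 CPM with RW and from 1119 to 5496 CPM with aJ1aJ2 at 7 days. Skeletal muscle fibre genes had a median of 1.67 with aJ1aJ2 at 7 days (10 of 10 higher), of -1.13 and -0.56 with aJ1aJ2 and aN1aN2 at 5 days (10 of 10 lower in each), and the summed level of the 10 genes ran from 1452 to 24355 CPM in RW and 3904 to 116836 CPM in aJ1aJ2 at 7 days. With the muscle sum as a covariate the 7-day values were -0.60 for Notch3, -0.55 for Heyl, -1.73 for Rgs5 and -1.59 for Ndufa4l2. The part of fibroblast and adipocyte genes was not tested.

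The second 7-day set compared the triple receptor block with the ligand block. Rgs5 was lower with aN1aN2aN3 than with aJ1aJ2: the aJ1aJ2 libraries held 47.9, 47.6, 58.3, 62.5 and 31.1 CPM and the aN1aN2aN3 libraries 26.5, 9.46, 21.7, 21.3 and 27.7. The groups did not overlap, 5 of 5 aN1aN2aN3 libraries lay below the aJ1aJ2 mean, and the log2 fold change was -1.27 (SE 0.28), or 2.41-fold lower, with an adjusted p of 0.00966 by edgeR. It was the 1 of the 4 genes called. In this set 19.6% of all 18450 genes were called and 10.4% were called lower, and 6.14% were lower with no overlap, so a call is common here and is not independent support for genes chosen with these results known.

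Tg was 10898 to 23015 CPM in the aJ1aJ2 libraries of this set and 27037 to 46352 CPM in the aN1aN2aN3 libraries, with no overlap. With Tg in the fit the Rgs5 value was 0.00 (0.00364, adjusted p = 0.998 by edgeR), and the count of called genes fell from 3614 to 137. Tg level and antibody cannot be told apart in these 10 libraries. The GC contrast of the libraries ran from -1.18 to 0.01 (median -0.89) with aJ1aJ2 and from -0.35 to -0.05 (median -0.27) with aN1aN2aN3, and the length contrast from -1.68 to -1.14 and from -1.41 to -0.83. With the GC contrast in the fit Rgs5 stood at -1.07 (adjusted p = 0.0284 by edgeR), and the part of the length contrast was not tested.

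Ndufa4l2 had a similar difference with a wider error: 1.37, 2.05, 2.63, 0.931 and 1.29 CPM with aJ1aJ2 and 0.957, 0.422, 0.0981, 0.946 and 0.757 CPM with aN1aN2aN3. The groups overlapped at 1 aJ1aJ2 library, and these levels rest on 18 to 66 and 3 to 30 reads a library. The log2 fold change of -1.42 (SE 0.49, 5 of 5 libraries below the aJ1aJ2 mean) did not pass the threshold by edgeR (adjusted p = 0.061), whereas DESeq2 gave an adjusted p of 0.0216 and limma on FPKM 0.0423.

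Notch3, the receptor that anti-Notch3 is directed against, was at 2.98, 2.14, 2.27, 4.08 and 4.89 CPM with aJ1aJ2 and at 2.44, 2.50, 3.56, 3.75 and 3.22 CPM with aN1aN2aN3. The groups overlapped fully, and the log2 fold change was -0.14 (95% interval -0.75 to 0.46, adjusted p = 0.741 by edgeR). Heyl was at 8.48, 10.6, 10.4, 10.1 and 15.0 CPM against 8.38, 14.3, 12.4, 11.4 and 7.50, a log2 fold change of -0.08 (-0.56 to 0.41, adjusted p = 0.834). The interval of Notch3 still includes a difference as large as its -0.63 for aJ1aJ2 against RW in the first set, and that of Heyl ends short of its -0.72. Neither group of this set can be read against an RW level.

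Of the 21 mural identity genes, 6 were called lower and 1 higher in the same comparison, where 10.4% of all genes were called lower and 19.6% either way. Their median was -0.79, with 19 of 21 lower, against a median of -0.07 and 54.2% lower over all genes. The lower ones were led by Cd248, endosialin, at -2.90 (SE 0.70, adjusted p = 0.018 by edgeR), Cspg4, the NG2 proteoglycan of pericytes, at -1.94 (SE 0.53, adjusted p = 0.0255) and Trpc6, a cation channel, at -1.74 (SE 0.49, adjusted p = 0.0295). Mcam, an adhesion molecule of mural and endothelial cells, was the 1 called higher, at 0.95 (SE 0.19, adjusted p = 0.00616). Pdgfrb stood at 0.48 and was not called. The median log2 ratio of Rgs5 to Pdgfrb was 1.98 with aJ1aJ2 and 0.29 with aN1aN2aN3. The other genes also had lower medians with aN1aN2aN3. They were -1.64 and -2.16 for Notch3, -0.12 and -0.56 for Heyl and -2.27 and -4.00 for Ndufa4l2 (aJ1aJ2, then aN1aN2aN3).

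Of all 18450 genes tested in this comparison, 1696 were called higher and 1918 lower, so calls in either direction are common in any list. Of 9 smooth muscle contractile genes, 3 were called lower (Myl9 at -1.06, Tagln at -0.93 and Cald1 at -0.61) and none higher. In the paralog list Ndufa4 was called lower at -1.53 (SE 0.32, adjusted p = 0.00826 by edgeR) and Rgs2 at -0.81 (SE 0.26, adjusted p = 0.0445), while Rgs16 was called higher at 2.50 (SE 0.40, adjusted p = 0.0027) and Notch2 at 0.91 (SE 0.25, adjusted p = 0.0252). Of 30 Notch pathway genes tested, 3 were called higher (Notch2, the coactivator gene Maml3 at 0.85 and Ncstn, a gamma-secretase subunit, at 0.72) and 0 lower. Hypoxia genes were called in both directions, 4 higher, among them Ndrg1 at 1.66, and 1 lower, Vegfa at -0.60.

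Markers of cells other than mural cells moved in that comparison too. Of 10 fibroblast genes 5 were called lower (median -2.10) and of 7 adipocyte genes 4 were called lower (median -2.28). Of 16 endothelial genes 4 were called higher and 2 lower. Beside these, 10.4% of all genes were called lower and 19.6% either way. The summed fibroblast level ran from 1019 to 2578 CPM with aJ1aJ2 and from 448 to 1175 CPM with aN1aN2aN3, and the adipocyte sum from 2255 to 3804 CPM and 218 to 1085 CPM. No fibroblast or adipocyte gene of the lists was at 0 counts in either group. The part of these in the Rgs5 value was not tested.

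The 2 sets share the aJ1aJ2 label at 7 days, and their levels are placed side by side here without a test. Notch3 averaged 3.27 ± 1.19 CPM in the second set and 31.1 ± 6.17 in the first, Heyl 10.9 ± 2.42 and 22.0 ± 6.31, Rgs5 49.5 ± 12.1 and 77.5 ± 19.3, and Ndufa4l2 1.65 ± 0.678 and 1.81 ± 0.411. Pdgfrb averaged 11.6 ± 4.34 and 41.7 ± 4.74 CPM. The intervals of mean ± SD overlapped for Rgs5 and Ndufa4l2 and were apart for Notch3, Heyl and Pdgfrb. Ndufa4, a short transcript, averaged 765 ± 326 CPM in the second set and 142 ± 69.5 in the first, the opposite order. The set cannot be told apart from what came with it, including the length contrast given above.

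Within groups, the 4 genes fell into 2 pairs. The deviation of each library from its group mean (log2 of CPM plus 0.5) was compared over the 50 libraries, which share their depth and tissue makeup between genes, so these correlations are a description. Notch3 and Heyl deviated together (Pearson r = 0.63), as did, less closely, Rgs5 and Ndufa4l2 (0.39). Across the pairs the sign was reversed: Rgs5 with Heyl gave -0.64, Rgs5 with Notch3 -0.35, Ndufa4l2 with Heyl -0.40 and Ndufa4l2 with Notch3 -0.40. Without RW replicate 3 at 5 days the values were 0.60, 0.41, -0.59, -0.29, -0.43 and -0.41.

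The deviations of Heyl were closer to those of Tg than to those of Pdgfrb or of the mural sum, in which Anpep weighs heavily. They correlated at 0.81 with Tg and 0.84 with the summed endothelial genes, at -0.68 with the muscle fibre sum, at 0.28 with Pdgfrb and at -0.38 with the mural sum of 18 genes (-0.72 where Abcc9, which muscle also expresses, was kept in that sum). Rgs5 had values of the opposite sign, at -0.65 with Tg, 0.51 with the muscle fibre sum and 0.20 with the mural sum (0.57 with Abcc9 kept), and stood at 0.01 with Pdgfrb. Notch3 stood at 0.60 with Pdgfrb and 0.61 with Tg. Ndufa4l2 stood at 0.01 with Pdgfrb and -0.39 with Tg. With the sum of the 32 other Notch pathway genes Heyl stood at 0.84, Notch3 at 0.73, Rgs5 at -0.74 and Ndufa4l2 at -0.41. With the length contrast of the libraries Notch3 stood at 0.60, Heyl at 0.30, Rgs5 at -0.34 and Ndufa4l2 at -0.48. With the GC contrast the values were 0.52, 0.35, -0.37 and -0.14 in the same order. The part of these contrasts in the other correlations was not tested. The 4 genes thus share known roles in mural cells, but they did not vary together among the libraries of a group.

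**Figure D4:**
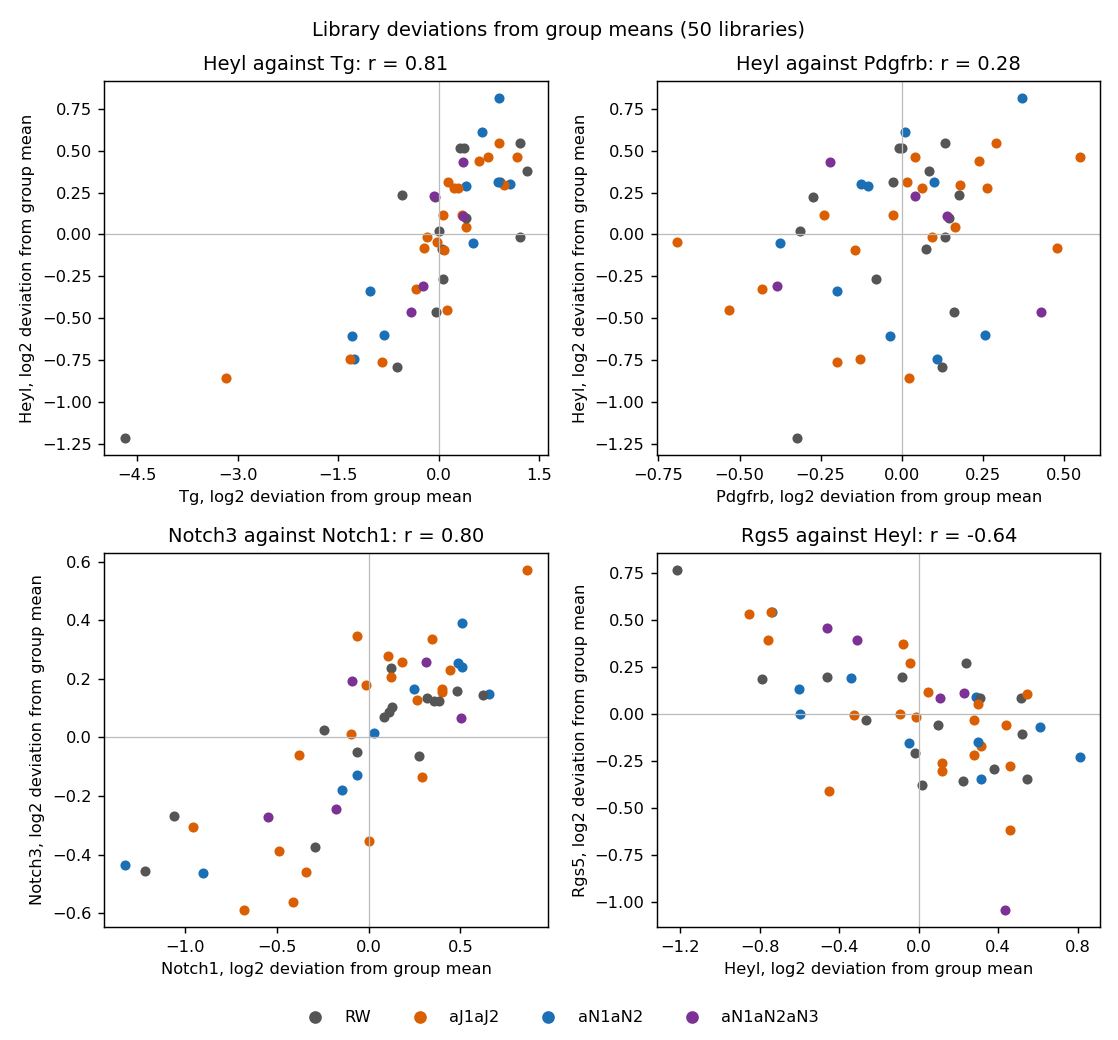
Deviation of each of the 50 libraries from its group mean (log2), coloured by antibody: Heyl against Tg, Heyl against Pdgfrb, Notch3 against Notch1, and Rgs5 against Heyl. Heyl rises with Tg (r = 0.81) more closely than with Pdgfrb (0.28), Notch3 rises with Notch1 (0.80), and Rgs5 falls as Heyl rises (-0.64).

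The genes whose deviations were most like each of the 4, among 16171 genes with a mean of at least 1 CPM, were not other members of the mural list. For Notch3 they were Dock6 (r = 0.82), Col4a2 (0.81), Numa1 (0.81), Notch1 (0.80) and Rai1 (0.80). For Heyl they were Ctsa, Klhl25, Ankrd13a, Arhgap27 and Tbx3 (all 0.91), with Tg ranked 436 and Pdgfrb 6170. The nearest to Rgs5 were Mapk8 (0.80), Gtdc1, Zranb1, Mbtps2 and Zfp943 (each 0.77 or 0.78), and to Ndufa4l2 they were Cd109, Mgst2, Runx2, S100a6 and S100a4 (0.70 to 0.72). None of these lists was used for a test.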

How the data were processed

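RNA-seq of mouse thyroid was taken from 2 deposited tables. The authors deposited raw counts per gene, as whole numbers, and FPKM values made from them; within each of 2 blocks of libraries (30 and 20) FPKM was the count divided by a median-of-ratios size factor and a gene factor, while over all 50 libraries the ratio varied by 8.70%. Total RNA was sequenced as single-end reads, per the labels' protocols, and GSNAP and limma are named in the submitters' processing notes, without roles. The sources used here do not give the counting tool, the annotation, the build or the strand. No column lacked a library (0). Groups and replicate numbers come from the titles; nothing in the labels beyond separate titles says that replicates are separate animals, so p-values measure the spread between these samples. The smallest chi-square per degree of freedom over 100 replicate pairs was 17.1, so every library was counted as its own replicate.

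The counts were tested with edgeR 4.0.16 in R 4.3.3 (TMM, robust quasi-likelihood test, two-sided, genes kept by filterByExpr at 10 counts and 15 in total). The 15 libraries at 15 hours, the 15 at 5 days and the 10 of each 7-day set were fitted separately, with Benjamini-Hochberg adjustment over all genes and a threshold of 0.05. Alternatives were RLE scaling, no filter, DESeq2 1.42.0, limma-trend 3.58.1 on log2(FPKM + 0.1) within a block, a replicate block, 2 groups only, a muscle covariate and each library left out; Tg and GC covariates were added after seeing the data. The script was tested on simulated counts. Symbols came from GENCODE M21 for 52403 genes and were missing for 233. The 4 genes and the gene lists were chosen with earlier results of these data known. Named genes are the 4, their 9 paralogs, in each list and comparison up to 3 called genes per direction by size, and the 5 nearest genes to each. Of the 13 hypoxia genes 1 was not in the table; the lists are mural identity, smooth muscle, Notch pathway, paralogs, hypoxia, endothelial, fibroblast, muscle satellite cell (0 called), muscle fibre (0 called), adipocyte and thyroid follicular cell.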

Additional observations from a re-analysis of the deposited data

Results flagged for a closer look

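A library was set apart where its gap to the nearest of the others exceeded 0.71 of the range of its group of 5. Of 40 groups tested (4 genes in 10 groups) 5 had such a library, and chance gives about 5 in 100. Notch3 in RW at 5 days had a low library at 29.94 CPM (replicate 3, the one with the lowest Tg and the highest muscle share). Rgs5 with aJ1aJ2 at 7 days in the first set had a high library at 110.6 CPM, replicate 2. Ndufa4l2 had 3 high libraries, at 11.39 CPM in RW at 7 days (replicate 5), 5.922 CPM with aJ1aJ2 at 5 days (replicate 3) and 5.011 CPM with aN1aN2 at 5 days (replicate 1).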

How the results depend on the processing

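In the comparisons with RW the values of the 4 genes were judged by their size alone, and calls there did not hold in all fits (the Notch3 call with aJ1aJ2 at 15 hours held in 3 of 15 fits without a library). Over all alternatives 516 values moved by less than the replicate spread or, in the second set, kept their call and direction, and 8 did not. Under the Tg covariate Rgs5 in the second set went to 0.00364 (adjusted p = 0.998); the cause was not tested. Ndufa4l2 there passed the threshold with DESeq2 (-1.42, adjusted p = 0.0216), with limma on FPKM (-1.27, adjusted p = 0.0423) and without aJ1aJ2 replicate 4 (-1.55, adjusted p = 0.049). Notch3 and Heyl turned sign without aJ1aJ2 replicate 5 (0.0538 and 0.0699), and Heyl without aN1aN2aN3 replicate 5 (0.0364), all near 0 throughout. Rgs5 with aJ1aJ2 at 5 days went to -0.07064 under the GC covariate. Beside these 8, Ndufa4l2 with aN1aN2 at 15 hours (0.20) was -0.25 with the Tg covariate, a change of sign within the replicate spread. Leaving out each library gave -1.40 to -1.08 for Rgs5 (adjusted p 0.00591 to 0.0286), -1.63 to -1.14 for Ndufa4l2 (0.049 to 0.135), -0.26 to 0.05 for Notch3 and -0.20 to 0.07 for Heyl in the second set.

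The number of genes called moved more, and the cause was not tested. For aJ1aJ2 at 15 hours (106) it was 48 with 2 groups only, 265 with DESeq2 and 0 with limma on FPKM (1045 at an unadjusted p under 0.05). For aN1aN2 at 15 hours (311) it was 693 with the muscle covariate, 127 with GC and 842 with DESeq2; the FPKM test was not run across blocks. For aJ1aJ2 at 5 days (33) it was 9 without the filter, 1090 with muscle, 1682 with Tg, 522 with DESeq2, and 0 with GC or with 2 groups only (2009 and 1722 at an unadjusted p under 0.05). For aN1aN2 at 5 days (0) it was 950 with muscle, 704 with Tg and 402 with DESeq2. For aJ1aJ2 at 7 days (0) it was 20 without the filter, 5 with muscle, 54 with Tg and 417 with DESeq2. In the second set (3614) Tg left 137. Leaving out a library gave 35 to 127, 120 to 444, 0 to 197 (without RW replicate 3), 0 to 9, 0 to 20 and 2042 to 4305 in this order.

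Same-numbered libraries did not deviate together in every pair (correlations from -0.664 to 0.799), so the numbers were not taken as pairs; with a replicate block 36, 186, 1, 0, 0 and 2100 genes were called, and Rgs5 in the second set was -1.32 (adjusted p = 0.0301). The depth limits Ndufa4l2, which rests on as few as 3 reads in a library.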

Other observations

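The thyroid follicular cell genes, which the text above does not describe, had 0 of 10 called in the 5 comparisons with RW, with medians of 0.11, -0.40, -0.28, -0.29 and -0.25 (aJ1aJ2 and aN1aN2 at 15 hours, both at 5 days, aJ1aJ2 at 7 days), and with aN1aN2 at 15 hours 10 of 10 were lower. In aN1aN2aN3 against aJ1aJ2 of the second set, Tg at 1.31 (SE 0.31, adjusted p = 0.0137 by edgeR) and Pax8, a thyroid transcription factor, at 0.78 (adjusted p = 0.0222) were called higher, and Slc5a5, the iodide transporter, at -1.91 (adjusted p = 0.0165) was called lower. Endothelial genes there were led by Robo4 at 1.46, Pecam1 at 1.15 and Cdh5 at 1.09 among those called higher, and by Emcn at -1.18 and Kdr at -0.99 among those called lower (edgeR).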
